A study of Homo sapiens with 12 samples.

Results

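Ribosome biogenesis and RNA polymerase I are represented here by a list of 54 genes of rRNA transcription and ribosome assembly, looked up by symbol in the count tables. All 54 were found among 16384 symbols, and all 54 were among the 12645 genes that passed the filter on low counts and were tested. RNA-seq was done on MDA-MB-231, an established human triple-negative breast cancer cell line, labelled as wild type in every group. There were 4 groups of 3 libraries. Combination cells received 10 µmol/L CAR (cardamonin, a plant chalcone) together with 25 µmol/L JQ1 (an inhibitor of the BET bromodomain proteins, written JQ-1 in the labels). CAR cells received 10 µmol/L CAR alone, JQ1 cells received 25 µmol/L JQ1 alone, and DMSO cells received the solvent that serves as control. The labels state neither how long the cells were treated nor whether the 3 libraries of a group came from separate cultures, and p-values therefore describe just the spread among these libraries, which may be technical. The cells are 1 line, and nothing here extends the values to another.

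Ribosome production begins in the nucleolus, where RNA polymerase I transcribes the rRNA genes into a long precursor. Small nucleolar ribonucleoproteins (snoRNPs) modify that precursor, the small subunit processome and the large subunit assembly factors fold and cut it, and the subunits are then exported to the cytoplasm. MYC is a well known activator of these genes in tumour cells, and it binds the E-box, the hexamer CACGTG. The rRNA itself is not polyadenylated and was not measured by these poly(A)-selected libraries. By role, 8 members belong to the polymerase and its factors, 7 to snoRNPs, 17 to small subunit assembly, 15 to large subunit assembly, and 7 are other nucleolar proteins.

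Levels below are CPM, each count as its share of the library total scaled by TMM, a factor that sets the bulk of genes level between libraries. Differences are log2 fold changes ± SE from edgeR's quasi-likelihood test, fitted to all 12 libraries, and the Benjamini-Hochberg adjustment ran over all genes tested, with calls made under 0.05. Totals ran from 17449715 to 19754456 counts per library. In bulk RNA, fewer cells of a type and less RNA per cell cannot be told apart, and a CPM gives a share of the library rather than an amount per cell. All 10 marker genes listed for MDA-MB-231 were tested, and their summed level was 3693 to 3905 CPM in Combination, 7857 to 7993 with CAR alone, 4328 to 4390 with JQ1 alone, and 8062 to 8220 with DMSO. Of 10 luminal genes that the line lacks or holds low, 4 passed the filter, with the list summing to 79.4 to 84.7 CPM in Combination, 100.1 to 103.8 with CAR alone, 97.7 to 101.4 with JQ1 alone, and 103.5 to 114.7 with DMSO. Most of that luminal sum was KRT19, at a mean of 70.9 CPM in Combination, 76.1 in CAR, 88.5 in JQ1 and 77.7 in DMSO. DMSO replicate 3 and Combination replicate 1 stood apart. DMSO replicate 3 differed from DMSO replicates 1 and 2 by a chi-square per degree of freedom of 10.6 and 12.6, against 1.46 to 2.31 for every other pair of replicates. Among the 54 members its deviation from the other DMSO libraries fell with transcript length (Spearman's rho -0.755 across these genes, a description), with UTP20 at -0.40 and RRP9 at 0.42 on the log2 scale. Combination replicate 1 held liver transcripts such as ALB, and its 12 liver markers summed to 150.8 CPM, against 1.34 to 3.67 CPM in the CAR, JQ1 and DMSO libraries. Counts below are therefore also given without these libraries, and what else they contributed was not tested.

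The 54 members together made up 5088 to 5094 CPM in Combination libraries, 8520 to 8698 CPM in CAR libraries, 4216 to 4288 CPM in JQ1 libraries and 5734 to 5924 CPM in DMSO libraries. The 4 groups did not overlap in this sum, with CAR highest and JQ1 lowest. Their mean levels were 5091 ± 3.32 CPM in Combination, 8599 ± 90.7 in CAR, 4262 ± 39.8 in JQ1 and 5805 ± 104 in DMSO (SD, n = 3 each). NPM1 had the highest level per kilobase of transcript in every group, at 388.4 CPM per kb in Combination, 737.8 in CAR, 321.1 in JQ1 and 560.8 in DMSO. The lowest per kilobase was PPAN, a large subunit factor, at 3.02 CPM per kb in Combination, 3.50 in CAR, 1.98 in JQ1 and 2.34 in DMSO, though 56.0% of its exon bases also belong to the readthrough gene PPAN-P2RY11.

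Every member rose in CAR: 54 of 54 were called higher in CAR than in DMSO and 0 lower, where 27.3% of all genes tested were called higher and 30.1% lower. The members' median log2 fold change was 0.58, beside -0.02 for all genes tested, and 27 members were at least 1.5-fold higher. In all 54 the 3 CAR libraries lay above the 3 DMSO libraries, which held for 28.7% of all genes tested. Without DMSO replicate 3 the count was again 54 higher and 0 lower, with a median of 0.61. The values ran from 0.10 for UBTF to 1.01 for RRP12. Because the members were chosen with earlier results of these data known, these counts describe the list and are not independent support.

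Most members fell in JQ1. In JQ1 against DMSO, 44 of 54 were called lower and 6 higher, with 42.2% of all genes tested called lower and 41.5% higher, and the median log2 fold change was -0.51 beside -0.01 for all genes. The 6 that rose were POLR1C, RRN3, UBTF, BOP1, RRP1B and NOC2L. In 45 members the JQ1 libraries lay wholly below the DMSO libraries and in 6 wholly above (41.9% and 41.3% of all genes tested). POLR1B, POLR1D and PPAN overlapped. The values ran from -2.13 for RRS1 to 0.58 for UBTF, a wider spread than the CAR values. Without DMSO replicate 3 the counts were 45 lower and 6 higher.

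Most members were higher in Combination than in JQ1, and most were lower in Combination than in DMSO. In Combination against DMSO, 32 members were called lower and 13 higher, with 42.8% of all genes tested called lower and 42.6% higher, and the median was -0.25 beside 0.00 for all genes. Without DMSO replicate 3 the counts were 32 lower and 15 higher, and without Combination replicate 1 they were 31 and 14. With libraries scaled by their totals alone 40 were lower and 7 higher, and NOP56, RRP12, TSR1, NOP2, PPAN and NCL, all higher with TMM, were not called. Of all 12645 genes tested, 6501 were then called lower and 4216 higher, beside 5415 and 5386 with TMM. In Combination against JQ1, 43 were called higher and 3 lower (26% and 25.9% of all genes tested), and the median was 0.25. Without Combination replicate 1 these counts were 39 and 1, and 1 was also the count of lower members without JQ1 replicate 2 and without Combination replicate 3. In Combination against CAR, 48 were called lower and 4 higher (43% and 42.4% of all genes tested), and the median was -0.83, with 2 higher under total count scaling. These comparisons share libraries with one another, as do the comparisons with DMSO, so their values stand side by side and do not count as separate evidence.

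**Figure D1:**
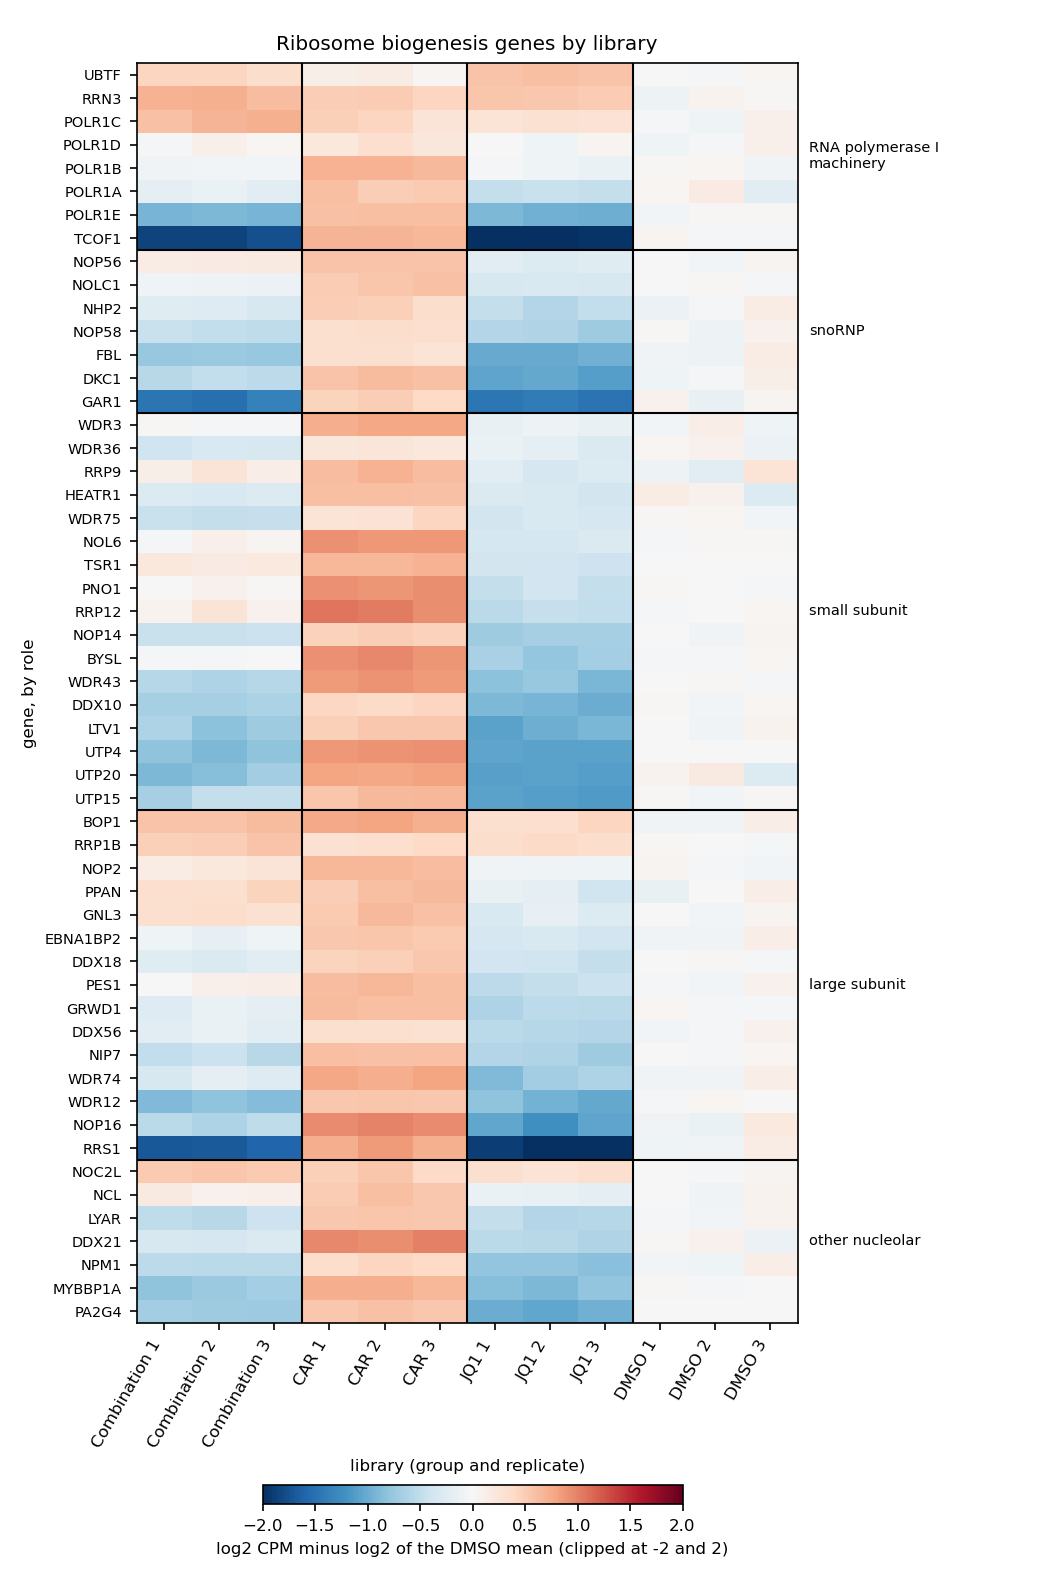
Heat map of the 54 members (rows, grouped by role) in the 12 libraries (columns, Combination, CAR, JQ1 and DMSO), coloured by log2 CPM minus the log2 of the DMSO mean, with the colour scale clipped at -2 and 2. The CAR columns are above 0 in every row, while the JQ1 columns are below 0 in most rows, with RRS1 and TCOF1 lowest, and UBTF, RRN3, POLR1C, BOP1, RRP1B and NOC2L above 0.

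**Figure D2:**
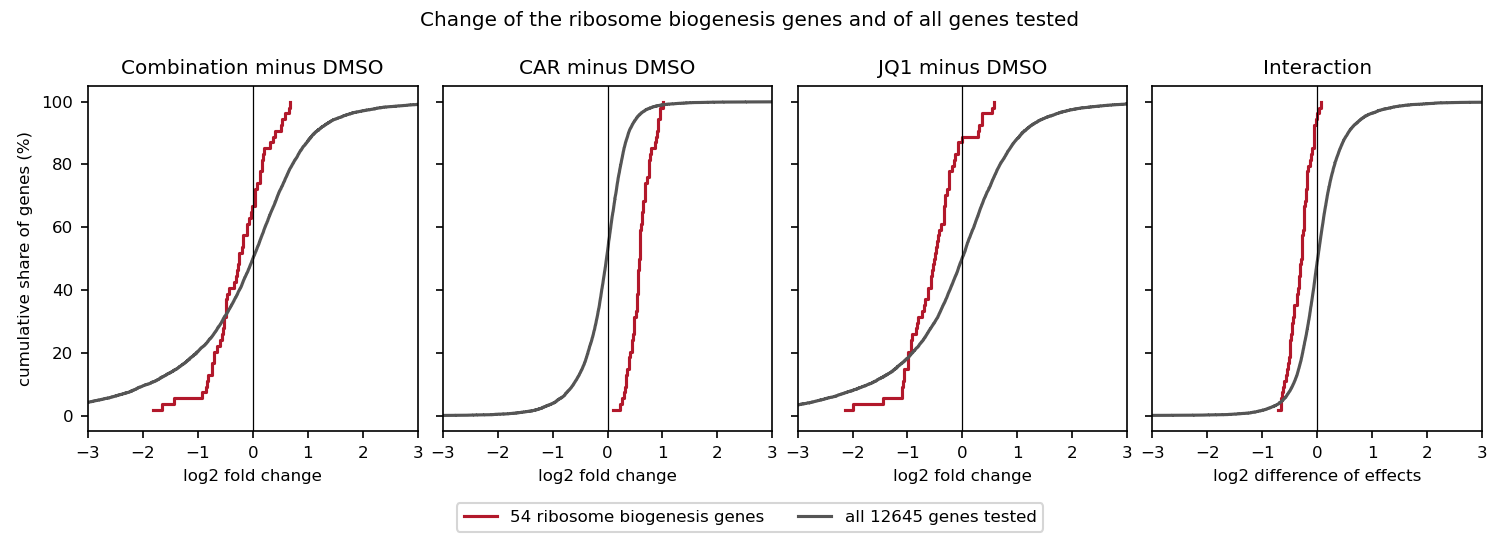
Cumulative share (y axis, percent) of the 54 members and of all 12645 genes tested against the log2 fold change (x axis), for Combination minus DMSO, CAR minus DMSO, JQ1 minus DMSO and the interaction. The CAR curve of the members lies wholly to the right of 0, with a median of 0.58, and the interaction curve lies to the left of 0 for 52 of 54 members.

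RefSeq promoter windows of GRCh38.p14, reaching from 250 bases before to 50 bases after the annotated start, were matched for 45 of the 54 members. The 9 without a window were POLR1E, TCOF1, NOP58, NOLC1, RRP12, BOP1, RRS1, RRP1B and DDX18. They enter none of the motif counts, medians or ranges below. RRS1 and TCOF1, which fell most in JQ1, and RRP12, which rose most in CAR, are thus left out there. The E-box CACGTG, which reads the same on both strands, was present in 14 of the 45 windows, 31.1%, beside 10.1% of the 10253 windows of genes tested and 7.43% of all 27305 windows. Within the 50 bases after the start it was found in 22.2% of the members and in 1.15% of the genes tested, while in the 250 bases before the start the shares were 6.67% and 8.88%. A match is a stretch of letters and not a measured binding site, and windows were not tested against each other. Members and motifs were also chosen with earlier results of these data known. The windows below are examples from members of different roles and not all of the 14. Their E-boxes lie between base -16 (UTP4) and base 41 (NOP2), counted from the start. Each reads 5′ to 3′ on the gene's strand over 30 bases, with the E-box in capitals.
FBL (chr19:39846356-39846385, minus strand): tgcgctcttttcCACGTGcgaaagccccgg
WDR43 (chr2:28894658-28894687, plus strand): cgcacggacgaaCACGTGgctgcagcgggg
UTP4 (chr16:69132621-69132650, plus strand): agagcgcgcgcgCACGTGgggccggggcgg
UTP20 (chr12:101280083-101280112, plus strand): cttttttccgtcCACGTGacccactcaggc
RRP9 (chr3:51941892-51941921, minus strand): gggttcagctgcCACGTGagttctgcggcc
PNO1 (chr2:68157885-68157914, plus strand): ggtgcagctgcgCACGTGtttcagccggca
NOP2 (chr12:6568242-6568271, minus strand): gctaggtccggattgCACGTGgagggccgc
MYBBP1A (chr17:4555340-4555369, minus strand): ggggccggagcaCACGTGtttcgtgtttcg

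The 14 members with an E-box had a median log2 fold change of 0.68 in CAR against DMSO, beside 0.55 in the 31 windows without one. In JQ1 against DMSO the medians were -0.69 and -0.47. Of the 14, 13 were called lower in JQ1 and NOP2 was not called, while among the 31 without an E-box 24 were lower, 3 not called and 4 higher. Called lower and higher in JQ1 were 42.2% and 41.5% of all genes tested, and 44 and 6 of the 54 members. The values of the 2 sets overlapped widely in both comparisons, from 0.30 to 0.92 with an E-box and from 0.10 to 0.96 without one in CAR, and from -1.08 to -0.08 with and from -1.44 to 0.58 without in JQ1.

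**Figure D3:**
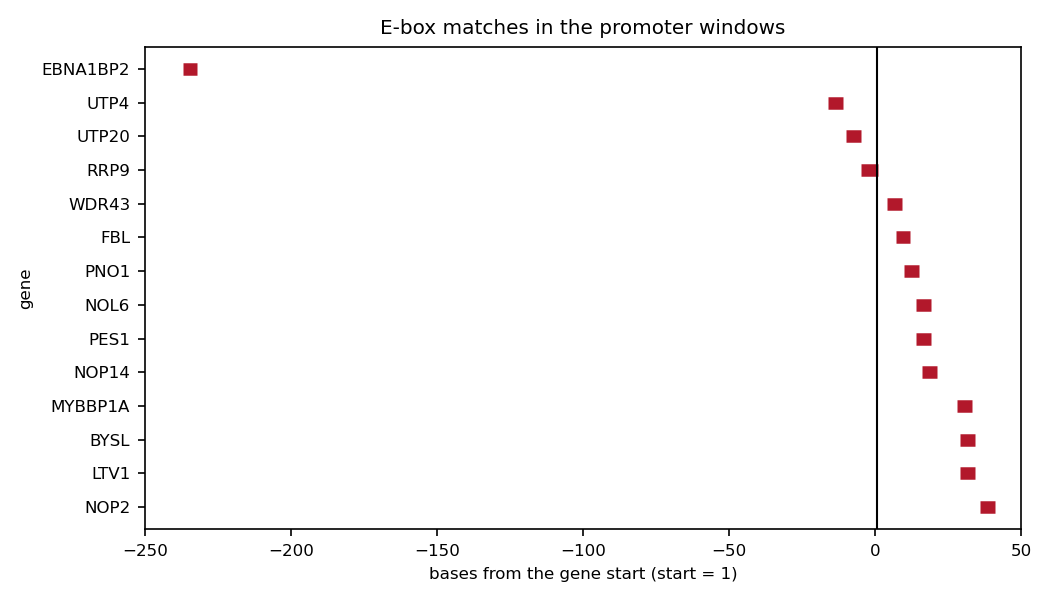
Position of the E-box (x axis, bases from the annotated start) in the promoter windows of the 14 members that hold one (rows), each match drawn as a block and the start as a vertical line. Of the 14 matches, 11 lie across the start or in the 50 bases after it, and EBNA1BP2 has its match farthest upstream.

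The ETS core CCGGAAGT was searched on both strands as well and was found in 10 of the 45 windows (22.2%, beside 8.88% of genes tested). The antioxidant response element core TGACNNNGC was found in 8.89% of the members and 15% of genes tested. The 250 bases before the start are printed for POLR1C, which rose in CAR, in JQ1 and in Combination, and for UTP4, which rose in CAR and fell in JQ1 and in Combination. ETS cores on the reverse strand (ACTTCCGG) and the E-box are in capitals, and in UTP4 these lie 23 bases apart.
POLR1C (chr6:43516839-43517088, plus strand): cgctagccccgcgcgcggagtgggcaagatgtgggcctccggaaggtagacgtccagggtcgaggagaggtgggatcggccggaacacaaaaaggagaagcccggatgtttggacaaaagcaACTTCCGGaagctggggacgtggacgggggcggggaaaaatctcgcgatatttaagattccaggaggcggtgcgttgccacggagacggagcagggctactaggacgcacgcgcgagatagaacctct
UTP4 (chr16:69132399-69132648, plus strand): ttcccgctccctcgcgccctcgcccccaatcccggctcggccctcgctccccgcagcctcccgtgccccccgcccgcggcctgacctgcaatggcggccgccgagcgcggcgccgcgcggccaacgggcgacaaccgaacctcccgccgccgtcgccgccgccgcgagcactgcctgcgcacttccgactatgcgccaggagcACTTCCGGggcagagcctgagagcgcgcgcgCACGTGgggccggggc

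RNA polymerase I and its factors all rose in CAR and moved either way in JQ1. All 8 were higher in CAR than in DMSO, with a median log2 fold change of 0.51. In JQ1 against DMSO, 3 rose (POLR1C, RRN3, UBTF), 3 fell (POLR1A, POLR1E, TCOF1) and POLR1B and POLR1D were not called. Combination against DMSO also gave 3 higher and 3 lower. The 37.5% in each direction is near the share of all genes tested, which was 41.5% higher and 42.2% lower in JQ1 and 42.6% higher and 42.8% lower in Combination. With total count scaling 5 of the 8 were called lower in both comparisons, POLR1B and POLR1D being added. More of all 12645 genes tested were also called lower in that setting. They numbered 6047 in JQ1 and 6501 in Combination, beside 5333 and 5415 with TMM. POLR1A, the largest catalytic subunit (chr2:86020216-86106155 on GRCh38), had 151, 158 and 149 CPM in Combination, 263, 242 and 248 with CAR alone, 125, 127 and 124 with JQ1 alone, and 178, 193 and 148 with DMSO. The CAR libraries were highest and the JQ1 libraries lowest, and Combination overlapped DMSO, whose replicate 3 was the lowest of its group. The differences were 0.54 ± 0.07 for CAR and -0.47 ± 0.07 for JQ1, and -0.18 ± 0.07 for Combination against DMSO (adjusted p = 0.0296), a call that was lost without DMSO replicate 1 (-0.16, adjusted p = 0.0863), without DMSO replicate 2 (-0.09, adjusted p = 0.136), without Combination replicate 1 (-0.17, adjusted p = 0.0738) and without Combination replicate 3 (-0.16, adjusted p = 0.0870), and without the filter on low counts (-0.17, adjusted p = 0.0660). POLR1B, which forms the catalytic centre with POLR1A, had 59.4, 59.99 and 59.8 CPM in Combination, 101, 100.3 and 97.2 with CAR alone, 60.8, 58.9 and 56.5 with JQ1 alone, and 63.6, 63.7 and 59.5 with DMSO. CAR stood alone above the other groups, which overlapped one another. It rose by 0.68 ± 0.04 in CAR, whereas with JQ1 present in both groups the value was 0.02 ± 0.05 for Combination against JQ1, not called (adjusted p = 0.695). JQ1 alone gave -0.08 ± 0.05 (adjusted p = 0.0940), which was called without DMSO replicate 3 (-0.11, adjusted p = 0.0216), under upper-quartile scaling (-0.14) and under scaling by library totals (-0.20).

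POLR1C and POLR1D are subunits that RNA polymerase I shares with RNA polymerase III. POLR1C (chr6:43509702-43562419) had 57.5, 60.97 and 62.3 CPM in Combination, 52.9, 51.3 and 45.4 with CAR alone, 45.9, 47.1 and 46.6 with JQ1 alone, and 37.5, 35.9 and 41.1 with DMSO. Combination was above every other library and DMSO below every other, while CAR and JQ1 overlapped. It rose by 0.39 ± 0.06 in CAR, 0.28 ± 0.06 in JQ1 and 0.66 ± 0.06 in Combination, each against DMSO. POLR1D had 42.5, 46.4 and 44.3 CPM in Combination, 50.001, 54.8 and 50.5 with CAR alone, 43.2, 40.9 and 44.9 with JQ1 alone, and 40.98, 42.4 and 46.5 with DMSO. CAR was above the other 3 groups, which overlapped. The gain in CAR was 0.26 ± 0.06, and the values for JQ1 (-0.01 ± 0.06) and Combination (0.04 ± 0.06) against DMSO were not called, but both were called lower with total count scaling (-0.13 and -0.17). POLR1E, a dissociable subunit that helps the enzyme start and elongate, had 28.9, 29.4 and 28.9 CPM in Combination, 82.2, 83.9 and 83.4 with CAR alone, 29.4, 28.3 and 28.1 with JQ1 alone, and 53.2, 55.9 and 56.1 with DMSO. Combination and JQ1 overlapped far below DMSO, and CAR was above DMSO. It rose by 0.60 ± 0.04 in CAR, fell by 0.94 ± 0.05 in JQ1 and fell by 0.92 ± 0.05 in Combination.

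RRN3 joins the polymerase to the promoter-bound factors. It had 65.9, 67.1 and 62.5 CPM in Combination, 57.4, 57.9 and 55.05 with CAR alone, 60.1, 59.3 and 57.8 with JQ1 alone, and 38.2, 42.9 and 41.3 with DMSO. Every treated library was above every DMSO library, and CAR and JQ1 overlapped. Its gains over DMSO were 0.68 ± 0.05 in Combination, 0.48 ± 0.05 in CAR and 0.53 ± 0.05 in JQ1. It has 3 pseudogenes named after it, and how their reads were assigned is not given in the sources used here. UBTF, the architectural protein of active rRNA genes (chr17:44205033-44221626), had 188, 187 and 178 CPM in Combination, 151, 154 and 143 with CAR alone, 206, 211 and 207 with JQ1 alone, and 139.9, 136 and 142 with DMSO. The 4 groups did not overlap, with JQ1 highest and DMSO lowest. UBTF rose by 0.58 ± 0.04 in JQ1 and 0.40 ± 0.04 in Combination. It was the smallest gain of any member in CAR, 0.10 ± 0.04 (adjusted p = 0.0315). That CAR call was lost without DMSO replicate 1 (adjusted p = 0.0639), without DMSO replicate 2 (0.110), without CAR replicate 1 (0.0861), without CAR replicate 2 (0.134), with total count scaling (0.438), with upper-quartile scaling (0.140) and with only the DMSO and CAR libraries (0.0617). UBTF was also 1 of the 3 members lower in Combination than in JQ1, by -0.18 ± 0.04.

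TCOF1 encodes treacle, a nucleolar scaffold that holds RNA polymerase I and UBTF on the rRNA genes (chr5:150357629-150400308). Its levels were 28.7, 28.4 and 30.4 CPM in Combination, 164, 165 and 164 with CAR alone, 25.6, 25.3 and 26.4 with JQ1 alone, and 108, 101 and 101 with DMSO. The groups did not overlap, and Combination and JQ1 were each several-fold below DMSO. TCOF1 fell by 2.0 ± 0.05 in JQ1, a 4.0-fold difference, and by 1.82 ± 0.05 in Combination, a 3.53-fold difference. In CAR it rose by 0.67 ± 0.04. It had the largest fall of any member in Combination against DMSO and against CAR (-2.49 ± 0.05). Over JQ1 alone, Combination was higher by 0.18 ± 0.05 (adjusted p = 0.00850), a call that was lost with total count scaling (0.09, adjusted p = 0.163).

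**Figure D4:**
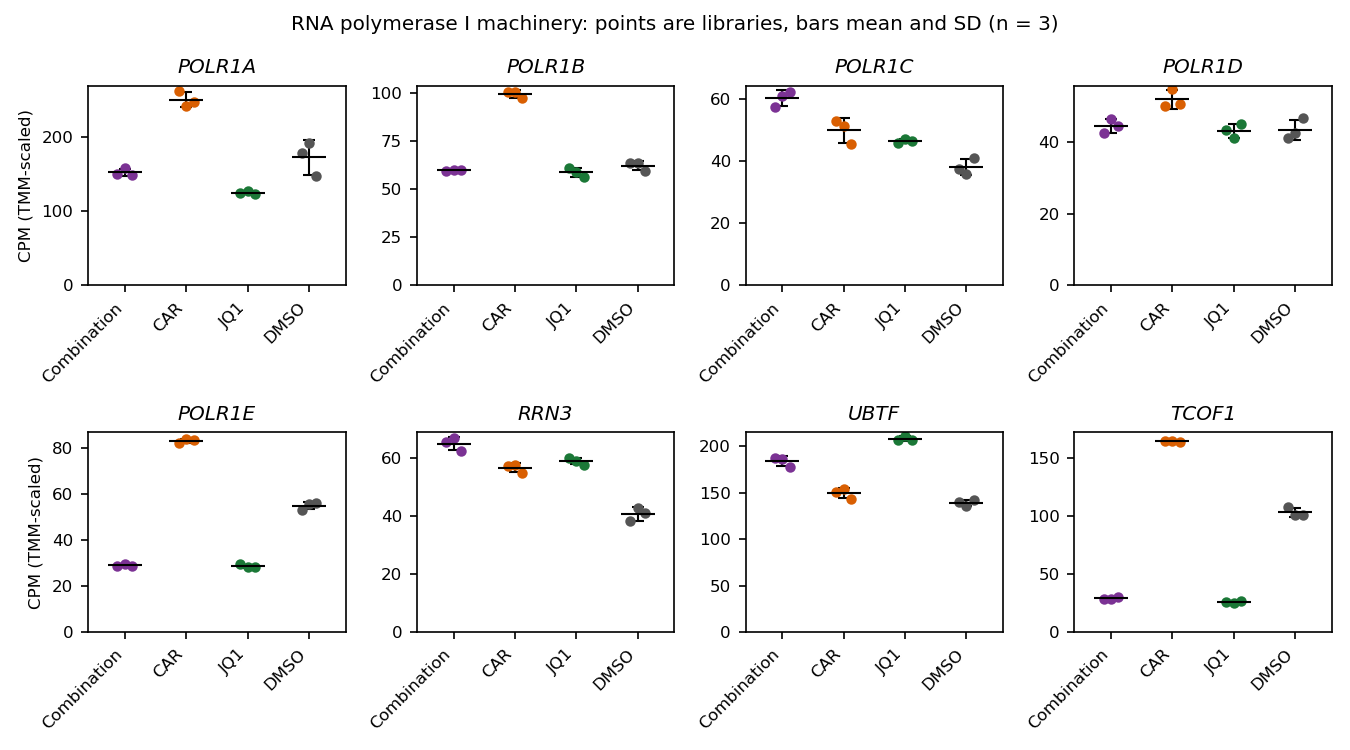
Levels (y axis, CPM) of the 8 polymerase genes, 1 panel each, in the 3 libraries (points) of Combination, CAR, JQ1 and DMSO, with bars for the group mean and SD (n = 3). TCOF1 and POLR1E are low wherever JQ1 was given, at 25.3 to 30.4 and 28.1 to 29.4 CPM, whereas UBTF and RRN3 are highest in the groups given JQ1.

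The 7 snoRNP members fell together in JQ1. All 7 were called lower than in DMSO, with a median of -0.63, and all 7 rose in CAR, with a median of 0.44. In Combination against DMSO 6 were lower and NOP56 was higher. Of all genes tested, 42.2% were lower in JQ1, 27.3% higher in CAR, and 42.8% lower and 42.6% higher in Combination. DKC1, the pseudouridine synthase of the H/ACA snoRNPs, which is also part of telomerase, had 60.2, 63.2 and 61.4 CPM in Combination, 132, 137 and 133 with CAR alone, 42.7, 43.6 and 41.2 with JQ1 alone, and 83.9, 85.98 and 96.1 with DMSO. The 4 groups did not overlap. It fell by 1.06 ± 0.05 in JQ1 and by 0.53 ± 0.05 in Combination, rose by 0.60 ± 0.05 in CAR, and was 0.54 ± 0.05 higher in Combination than in JQ1. GAR1, another H/ACA core protein (chr4:109815510-109824740), had 10.7, 10.4 and 11.6 CPM in Combination, 40.2, 41.7 and 38.97 with CAR alone, 10.9, 11.3 and 10.6 with JQ1 alone, and 31.2, 26.7 and 30.8 with DMSO. Combination and JQ1 overlapped, and both were far below DMSO. GAR1 fell by 1.44 ± 0.07 in JQ1 and by 1.44 ± 0.08 in Combination. Against JQ1 alone the value for Combination was near 0 with an SE of 0.09 (adjusted p = 0.996), although CAR alone raised GAR1 by 0.44 ± 0.06.

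FBL is fibrillarin, the methyltransferase of the C/D snoRNPs, and its promoter window with the E-box is printed above. It had 109.6, 109.6 and 109.5 CPM in Combination, 230.2, 230.0 and 223 with CAR alone, 91.9, 91.8 and 94.5 with JQ1 alone, and 176, 172 and 205 with DMSO. The groups did not overlap, and DMSO replicate 3 was above its own group. FBL rose by 0.30 ± 0.05 in CAR, the smallest gain among the snoRNP members, and fell by 0.99 ± 0.05 in JQ1 and by 0.75 ± 0.05 in Combination. NOP56, a C/D core protein, behaved otherwise. It had 185, 186 and 188 CPM in Combination, 246, 248 and 247 with CAR alone, 142, 138 and 141 with JQ1 alone, and 166, 161 and 172 with DMSO. Combination lay above DMSO and JQ1 below it. The differences against DMSO were 0.16 ± 0.04 for Combination, 0.57 ± 0.04 for CAR and -0.25 ± 0.04 for JQ1, and the Combination value turned to -0.04 (not called, adjusted p = 0.258) when libraries were scaled by their totals alone. NOP58, NHP2 and NOLC1 rose by 0.34, 0.44 and 0.55 in CAR and had values of -0.63, -0.52 and -0.31 in JQ1, all called.

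Small subunit assembly held the member with the largest rise in CAR, RRP12. All 17 members rose, with a median of 0.67, and all 17 fell in JQ1, with a median of -0.49. In Combination against DMSO 10 fell, 2 rose (RRP12 and TSR1) and 5 were not called. All genes tested gave 27.3% higher in CAR, 42.2% lower in JQ1, and 42.8% lower and 42.6% higher in Combination. RRP12 is a carrier that takes part in the export of both subunits (chr10:97356358-97426076). It had 48.4, 55.1 and 49.1 CPM in Combination, 96.5, 95.03 and 87.6 with CAR alone, 31.8, 33.6 and 32.8 with JQ1 alone, and 45.2, 45.8 and 47.5 with DMSO. The groups did not overlap, although Combination was just above DMSO. RRP12 rose by 1.01 ± 0.05 in CAR, the only member past a 2-fold gain there, and fell by 0.49 ± 0.06 in JQ1. Its gain in Combination of 0.14 ± 0.06 (adjusted p = 0.0245) was lost without DMSO replicate 1 (adjusted p = 0.0808), without DMSO replicate 2 (0.0538), without Combination replicate 2 (0.201), with DESeq2 (0.0507), with only the groups compared (0.0640) and with upper-quartile scaling (0.258), and turned to -0.07 with total count scaling. TSR1, a protein of late small subunit precursors, had 212, 205 and 208 CPM in Combination, 290.2, 289 and 296 with CAR alone, 142, 141 and 137 with JQ1 alone, and 182, 185 and 182 with DMSO. The order was CAR, Combination, DMSO and JQ1, without overlap. It differed from DMSO by 0.19 ± 0.03 in Combination, 0.67 ± 0.03 in CAR and -0.39 ± 0.04 in JQ1, and the Combination value was -0.02 with total count scaling. At 20.7%, part of its exons lie opposite SRR, and strand use in counting is not known here.

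UTP4 belongs to the UtpA complex, which binds the nascent rRNA precursor and is needed for its transcription. It had 60.5, 56.8 and 60.3 CPM in Combination, 192, 198 and 199 with CAR alone, 51.04, 50.1 and 50.5 with JQ1 alone, and 105, 106 and 105 with DMSO. Each group was tight, and none overlapped another. UTP4 rose by 0.89 ± 0.04 in CAR and fell by 1.06 ± 0.04 in JQ1 and by 0.84 ± 0.04 in Combination. UTP15, also of UtpA, had 13.2, 14.997 and 15.04 CPM in Combination, 30.8, 32.6 and 33.2 with CAR alone, 9.97, 9.78 and 9.49 with JQ1 alone, and 21.3, 20.1 and 21.2 with DMSO. It showed the same order of groups, without overlap. The fall in JQ1, 1.10 ± 0.07, was the largest among small subunit members, and Combination was 0.56 ± 0.08 above JQ1. WDR43, UTP20 and HEATR1 rose by 0.86, 0.79 and 0.60 in CAR and fell by 0.83, 1.08 and 0.32 in JQ1.

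WDR3 and WDR36 belong to UtpB, the other early complex, and WDR75 to UtpA. WDR3 had 73.5, 71.03 and 71.5 CPM in Combination, 119.9, 124 and 124 with CAR alone, 65.2, 67.7 and 65.04 with JQ1 alone, and 69.8, 79.3 and 68.3 with DMSO. CAR was above all other groups, and Combination overlapped DMSO. WDR3 rose by 0.76 ± 0.05 in CAR, while its fall in JQ1 was the smallest of the role, -0.13 ± 0.05 (adjusted p = 0.0189). That call was lost without DMSO replicate 2 (-0.07, adjusted p = 0.192), without JQ1 replicate 1 (0.0598), without JQ1 replicate 3 (0.0594) and with only the groups compared (0.0638). WDR36 had 52.9, 55.9 and 55.5 CPM in Combination, 80.7, 81.8 and 80.2 with CAR alone, 63.2, 61.4 and 57.01 with JQ1 alone, and 70.97, 73.3 and 63.7 with DMSO. WDR75 had 56.997, 56.3 and 56.8 CPM in Combination, 94.02, 94.9 and 105 with CAR alone, 60.4, 63.1 and 62.1 with JQ1 alone, and 79.5, 79.8 and 74.8 with DMSO. In both genes Combination was the lowest group and CAR the highest, without overlap. They had the smallest gains of the role in CAR, at 0.22 ± 0.05 and 0.33 ± 0.05. Combination was below JQ1 by -0.15 ± 0.05 for WDR36 (adjusted p = 0.0313) and -0.13 ± 0.05 for WDR75 (adjusted p = 0.0430). The WDR36 call was lost without JQ1 replicate 1, JQ1 replicate 2, Combination replicate 1 or Combination replicate 3, with adjusted p between 0.0526 and 0.143. The WDR75 call was lost without JQ1 replicate 2, JQ1 replicate 3 or any 1 Combination library, with adjusted p between 0.0783 and 0.135, and also with DESeq2 (0.0705) and without the filter on low counts (0.0537).

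Among the remaining small subunit members, BYSL, PNO1 and NOL6 rose most in CAR, by 0.92, 0.91 and 0.88. BYSL and PNO1 act late, on the pre-40S particle, and NOL6 is part of the processome. In JQ1 they fell by 0.70, 0.44 and 0.34, and in Combination against DMSO they had -0.02, 0.03 and 0.04, none of them called. With total count scaling BYSL, PNO1 and NOL6 were each called lower in Combination against DMSO. RRP9, a U3 snoRNP protein, had 0.17 in Combination against DMSO, called without DMSO replicate 3 and not with it, and its fall of 0.28 in JQ1 was no longer called without that library. NOP14, DDX10 and LTV1 fell in JQ1 by 0.68, 0.94 and 0.98 and in Combination by 0.44, 0.66 and 0.71.

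Large subunit assembly was mixed in JQ1. Of 15 members all rose in CAR, with a median of 0.59, and in JQ1 11 fell, 2 rose (BOP1 and RRP1B) and NOP2 and PPAN were not called. Beside these, 27.3% of all genes tested were higher in CAR, and 42.2% were lower and 41.5% higher in JQ1. Combination against DMSO gave 8 lower and 5 higher, near the 42.8% lower and 42.6% higher of all genes tested. Combination against JQ1 gave 14 higher and 0 lower (26% and 25.9% of all genes tested). RRS1, which helps bring the 5S ribonucleoprotein into the precursor, had the fewest reads of the named members, at 6.38, 6.39 and 6.85 CPM in Combination, 33.9, 37.3 and 33.8 with CAR alone, 5.55, 4.92 and 3.55 with JQ1 alone, and 19.4, 19.6 and 22.7 with DMSO. The groups did not overlap, and JQ1 replicate 3 was lowest. RRS1 fell by 2.13 ± 0.11 in JQ1, the largest fall of any member there, and by 1.65 ± 0.11 in Combination, and it rose by 0.77 ± 0.08 in CAR. Combination was 0.48 ± 0.14 above JQ1 (adjusted p = 0.00694), and without JQ1 replicate 3 that was 0.32 and no longer called (adjusted p = 0.0540). NOP16, another factor of early large subunit precursors, had 18.8, 17.8 and 19.3 CPM in Combination, 52.97, 54.6 and 52.5 with CAR alone, 13.4, 11.71 and 13.2 with JQ1 alone, and 26.04, 24.9 and 31.3 with DMSO. It was separated in all 4 groups, rose by 0.96 ± 0.07 in CAR, and fell by 1.10 ± 0.08 in JQ1.

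BOP1 forms the PeBoW complex with PES1 and WDR12, and the 3 partners did not move together in JQ1. BOP1 had 99.6, 101 and 104 CPM in Combination, 114, 117 and 110.5 with CAR alone, 84.6, 84.8 and 90.7 with JQ1 alone, and 64.3, 64.04 and 74.02 with DMSO. Every treated library was above every DMSO library, and no groups overlapped. BOP1 rose by 0.75 ± 0.05 in CAR, 0.36 ± 0.05 in JQ1 and 0.59 ± 0.05 in Combination. PES1 instead had -0.48 and WDR12 -0.92 in JQ1, both called, and in Combination PES1 had 0.08 (not called) and WDR12 fell by 0.85. In Combination PES1 was called higher without DMSO replicate 3 and without Combination replicate 1, and lower with total count scaling. RRP1B, related to the yeast large subunit factor Rrp1, had 109, 111 and 117 CPM in Combination, 97.7, 99.8 and 103 with CAR alone, 100.4, 103 and 100.1 with JQ1 alone, and 79.996, 79.1 and 77.1 with DMSO. DMSO was below all other libraries and Combination above them. Its gains were 0.52 ± 0.04 in Combination, 0.35 ± 0.04 in CAR and 0.36 ± 0.04 in JQ1. DDX56, an RNA helicase, had 82.7, 87.2 and 82.5 CPM in Combination, 119, 119.6 and 118 with CAR alone, 65.7, 64.3 and 63.6 with JQ1 alone, and 91.4, 93.2 and 102 with DMSO. The groups did not overlap. DDX56 fell by 0.56 ± 0.05 in JQ1 and rose by 0.32 ± 0.04 in CAR, and it was 0.38 ± 0.05 higher in Combination than in JQ1. NOP2 (an rRNA methyltransferase) and GNL3 (nucleostemin, a GTPase) rose in Combination by 0.20 and 0.32 over DMSO, although 54.4% of the exon bases of NOP2 also lie in another gene on the same strand.

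The 7 other nucleolar proteins include the abundant chaperone NPM1. All 7 rose in CAR (median 0.55), 6 fell in JQ1 and NOC2L rose, and in Combination against DMSO 5 fell and NOC2L and NCL rose. Shares of all genes tested were 27.3% higher in CAR, 42.2% lower in JQ1, and 42.8% lower and 42.6% higher in Combination. NPM1 had 574, 567 and 569 CPM in Combination, 1053, 1107 and 1089.8 with CAR alone, 477, 478 and 459 with JQ1 alone, and 792, 779.8 and 898 with DMSO. Groups did not overlap. NPM1 rose by 0.40 ± 0.04 in CAR, fell by 0.80 ± 0.04 in JQ1 and fell by 0.53 ± 0.04 in Combination. There are 45 pseudogenes named after it, so its reads may be split or dropped in a way that is not known here. DDX21, a helicase that binds rRNA and nascent transcripts (chr10:68956128-68985073), had 195, 194 and 199 CPM in Combination, 473, 462 and 488 with CAR alone, 167, 166 and 159.9 with JQ1 alone, and 249, 257 and 224 with DMSO. CAR was far above the other groups, and no groups overlapped. DDX21 rose by 0.96 ± 0.04 in CAR, fell by 0.57 ± 0.04 in JQ1 and fell by 0.31 ± 0.04 in Combination.

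PA2G4, a nucleolar and ribosome-binding protein also called EBP1, had 124, 122 and 122 CPM in Combination, 291, 302 and 290.2 with CAR alone, 101, 97.6 and 103 with JQ1 alone, and 199, 201 and 201 with DMSO. The groups were separate, and the DMSO libraries were close together. It rose by 0.56 ± 0.03 in CAR, fell by 0.99 ± 0.04 in JQ1, and fell by 0.71 ± 0.04 in Combination. MYBBP1A, a nucleolar partner of MYB, had 47.3, 49.1 and 51.3 CPM in Combination, 137, 137 and 130.4 with CAR alone, 45.9, 44.4 and 47.9 with JQ1 alone, and 83.6, 81.1 and 82.3 with DMSO. Combination and JQ1 overlapped, and both lay below DMSO. MYBBP1A rose by 0.71 ± 0.04 in CAR and fell by 0.84 ± 0.05 in JQ1, and 0.10 ± 0.05 in Combination against JQ1 was not called (adjusted p = 0.103). NOC2L, related to the yeast export factor Noc2, had 139.9, 144 and 139.6 CPM in Combination, 136, 143 and 127 with CAR alone, 121, 118 and 121 with JQ1 alone, and 96.8, 94.5 and 101 with DMSO. All treated libraries were above DMSO, and Combination overlapped CAR. NOC2L rose by 0.53 ± 0.04 in Combination, 0.47 ± 0.04 in CAR and 0.30 ± 0.04 in JQ1.

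The interaction asks whether the CAR difference was the same with JQ1 as without it, and for most members it was lower. The value is Combination minus JQ1 less CAR minus DMSO on the log2 scale. It was called lower for 37 of 54 members and higher for 0, with 18.2% of all genes tested called lower and 20.1% higher. The median was -0.29, beside 0.01 for all genes tested, and 52 members had a negative value. DMSO replicate 3 bears on it, since 45 members were called lower without it, and 36 without Combination replicate 1. Calls over all genes tested rose as well without DMSO replicate 3, to 2837 lower and 3027 higher of 12727, from 2305 and 2536 of 12645. Without Combination replicate 1 they were 2050 lower and 2282 higher of 12741. By role, 5 of 8 polymerase genes, 3 of 7 snoRNP genes, 13 of 17 small subunit genes, 10 of 15 large subunit genes and 6 of 7 other nucleolar genes were called lower. Without DMSO replicate 3 these counts were 7, 6, 14, 11 and 7, so that the snoRNP count changed most, with FBL, NOP58 and NHP2 added, and total count scaling gave 5 snoRNP genes. UBTF, WDR36 and WDR75 were higher in CAR than in DMSO and lower in Combination than in JQ1, so their CAR difference changed sign. That change rests on calls lost in several fits, for UBTF the one in CAR and for WDR36 and WDR75 those against JQ1. DDX21 had the lowest value, -0.71 ± 0.06, with CAR against DMSO at 0.96 ± 0.04 and Combination against JQ1 at 0.25 ± 0.04. For UTP4 the value was -0.67 ± 0.06, for POLR1B -0.65 ± 0.06, for WDR3 -0.63 ± 0.07, for MYBBP1A -0.61 ± 0.06 and for POLR1E -0.57 ± 0.07. BOP1, which rose in every treated group, had -0.53 ± 0.07, so that its gain from CAR in the presence of JQ1 was 0.23 ± 0.05. In TCOF1 the value was -0.49 ± 0.07 and in GAR1 -0.44 ± 0.11. Members whose interaction was not called included DKC1 (-0.06 ± 0.07), UTP15 (-0.06 ± 0.10), FBL (-0.06 ± 0.07), TSR1 (-0.10 ± 0.05), POLR1C (-0.01 ± 0.09) and DDX56 (0.07 ± 0.06). FBL was called without DMSO replicate 3 (-0.15, adjusted p = 0.00876), as were NPM1 (-0.19, adjusted p = 1.65e-05) and POLR1A (-0.15, adjusted p = 0.0110).

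**Figure D5:**
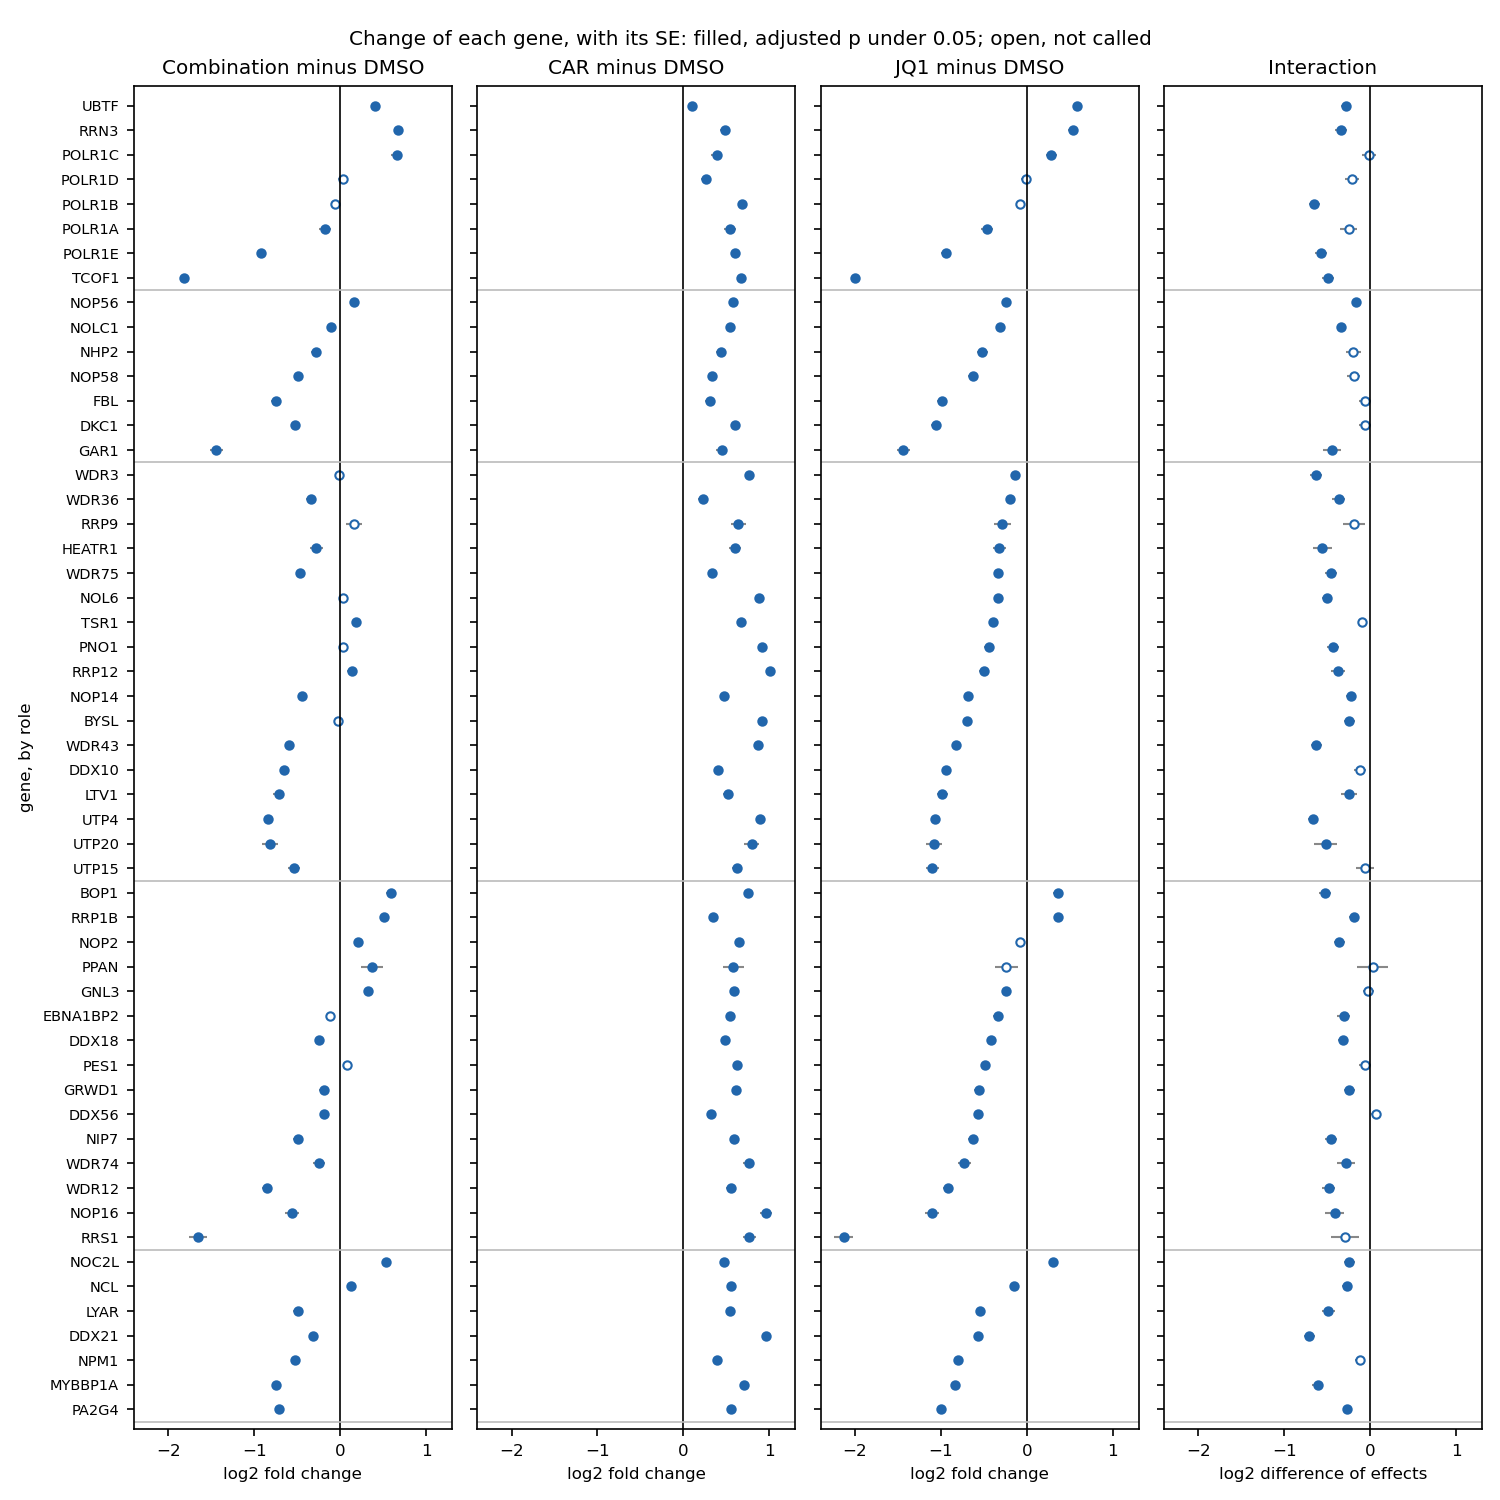
Log2 fold changes of the 54 members (rows, by role) for Combination minus DMSO, CAR minus DMSO and JQ1 minus DMSO with the interaction beside them (x axis, bars show SE, filled points passed the test and open points did not). All CAR points lie right of 0, from 0.10 to 1.01, and the interaction points lie between -0.71 and 0.07.

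MYC, named here as a regulator and not a member, had 152, 162 and 157 CPM in Combination, 167, 168 and 164 with CAR alone, 125, 125 and 129 with JQ1 alone, and 122, 122 and 122 with DMSO. CAR was highest, Combination just below it, and DMSO lowest, with JQ1 close above it. MYC mRNA rose against DMSO by 0.37 ± 0.04 in Combination, where 32 members were lower and 13 higher. It rose by 0.45 ± 0.04 in CAR, where all 54 members rose. In JQ1, where 44 members fell and 6 rose, it was not called at 0.05 ± 0.04 (adjusted p = 0.198). It was 0.32 ± 0.04 higher in Combination than in JQ1, where 43 members were higher and 3 lower. In Combination against CAR, where 48 members were lower and 4 higher, it had -0.08 ± 0.04 (adjusted p = 0.0495). Its interaction was -0.13 ± 0.05 (adjusted p = 0.0523). Whether MYC had a part in the changes of the members was not tested, and MYC protein was not measured.

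Other genes of the same pathway, listed by role and not among the 54, were read in the same fits. Of 14 further polymerase genes, 9 were called higher and 1 lower in CAR against DMSO (median 0.18), and 4 higher and 5 lower in JQ1 (median 0.02). Among all genes tested, 27.3% were higher and 30.1% lower in CAR, and 41.5% higher and 42.2% lower in JQ1. The JQ1 counts of the further polymerase genes therefore do not stand out. POLR1G, the partner subunit of POLR1E, had 8.51, 7.56 and 7.02 CPM in Combination, 29.3, 32.3 and 30.7 with CAR alone, 8.91, 8.23 and 9.55 with JQ1 alone, and 19.9, 19.9 and 21.5 with DMSO. Like POLR1E it was low in both groups given JQ1, with -1.41 ± 0.08 in Combination, 0.59 ± 0.07 in CAR and -1.20 ± 0.08 in JQ1 against DMSO. POLR2L, a small subunit shared by all 3 nuclear polymerases, went the other way, at 0.82 ± 0.05 in Combination, -0.21 ± 0.05 in CAR and 0.85 ± 0.05 in JQ1. Of 10 further snoRNP genes 7 were higher and 0 lower in CAR (median 0.20), and 1 higher and 6 lower in JQ1 (median -0.24), with the assembly ATPases RUVBL1 and RUVBL2 at -0.73 ± 0.05 and -0.38 ± 0.04 in JQ1.

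Of 35 further small subunit genes, 33 were called higher and 0 lower in CAR (median 0.39), and 6 higher and 22 lower in JQ1 (median -0.43). The higher and lower shares of all genes tested were 27.3% and 30.1% in CAR, and 41.5% and 42.2% in JQ1. IMP4, a U3 snoRNP protein, had 0.68 ± 0.04 in CAR and -0.55 ± 0.04 in JQ1, and UTP25 had 0.39 ± 0.06 and -1.66 ± 0.07. Of 45 further large subunit genes, 42 were higher and 0 lower in CAR (median 0.39), and 5 higher and 26 lower in JQ1 (median -0.32). EIF6, which keeps the subunits apart until the large one is mature, had 0.38 ± 0.04 in CAR and -1.18 ± 0.04 in JQ1, and DDX31 had 0.82 ± 0.05 and -1.31 ± 0.07. The interaction was called lower for 5 of the polymerase, 2 of the snoRNP, 11 of the small subunit and 20 of the large subunit genes on these lists, and higher for 1 large subunit gene. Over all genes tested it was called lower for 18.2% and higher for 20.1%, and the snoRNP count is near that lower share.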

How the data were processed

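The authors deposited 1 table of whole-number read counts per gene symbol for each of the 12 poly(A)-selected RNA-seq libraries, not normalized. Per the submitters' processing notes the tools were Trimmomatic, HISAT2 and HTSeq with the build hg38. For the versions, the annotation and the strand setting, the choice is not given in the sources used here, and a gene and an overlapping neighbour or pseudogene cannot always be told apart: 27 of the 54 members share exon bases with another gene, 7 of them at least 20% with 1 gene, and 13 have pseudogenes named after them. Groups came from the treatment labels and replicate numbers from the sample titles.

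The deposited counts went into edgeR 4.0.16 under R 4.3.3. Genes passing filterByExpr (minimum count 10, minimum total 15) were kept, 12645 of 16384. Libraries were scaled with TMM factors of 0.921 to 1.08. A robust quasi-likelihood model with 1 coefficient per group was fitted to all 12 libraries, leaving 8 residual degrees of freedom (common BCV 0.0408). The 6 contrasts set Combination, CAR and JQ1 each against DMSO, and Combination against JQ1 and against CAR, with the interaction as the last. A call needed a p under 0.05 after Benjamini-Hochberg adjustment over the genes of its contrast. The depth of 17449715 to 19754456 counts puts 3 counts at under 0.2 CPM, far below every member, and covers counting error only.

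Values in every library are given for the 8 polymerase genes and, in each other role, for the members with the largest and smallest change in CAR, JQ1 and Combination against DMSO and in the interaction, and for up to 4 members called against the majority of a contrast. For the 4 lists of other pathway genes, the gene with the smallest adjusted p in CAR and in JQ1 is named. A list of 12 snoRNA host genes matched 0 symbols and is void. The members, lists and motifs were chosen with earlier results of these data known. Marker lists covered MDA-MB-231 cells and luminal genes (values in the report), liver (likewise), leukocytes (6 of 10 matched, 149.2 to 167.6 CPM in Combination, 197.3 to 203.5 with CAR alone, 90.4 to 96.4 with JQ1 alone, and 124.6 to 134.3 with DMSO, with CD68 the most abundant and the pan-leukocyte gene PTPRC at 0 or 1 counts per library), and endothelium with fibroblasts (10 of 10 matched, 49.3 to 50.1 CPM in Combination, 25.8 to 28.7 with CAR alone, 106 to 107.1 with JQ1 alone, and 44.5 to 47.2 with DMSO). Most of the endothelium and fibroblast sum was PDGFRB, at a mean of 40.3 CPM in Combination, 14.1 in CAR, 96.5 in JQ1 and 31.2 in DMSO. Of the 4 genes tested from that list, 1 was called higher and 2 lower in JQ1 against DMSO (41.5% and 42.2% of all genes tested). What part the marker genes had in any result was not tested.

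Positions, transcript lengths and overlaps came from GENCODE v29 on GRCh38, and promoter windows from RefSeq on GRCh38.p14, neither of which is stated to be the authors' annotation. The 2 can place a gene's start differently, and motif positions are counted from the RefSeq start. The POLR1C window (chr6:43516839-43517138) lies inside the GENCODE gene (chr6:43509702-43562419). So does the PES1 window (chr22:30591861-30592160, gene chr22:30576625-30607083). Alternatives were DESeq2 size factors, total count and upper-quartile scaling, no filter, the replicate number as a block, DESeq2 1.42.0, only the groups compared, and leaving out each library in turn.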

Additional observations from a re-analysis of the deposited data

Results flagged for a closer look

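The interaction tests whether the CAR difference with JQ1 (Combination against JQ1) differs from that without it (CAR against DMSO). It was called for 37 members, all with the lower CAR difference where JQ1 was present. Of all genes tested, 18.2% were called lower and 20.1% higher. UBTF, WDR36 and WDR75 had a rise without JQ1 and a fall with it. The rise of UBTF and the falls of WDR36 and WDR75 were not called in several alternative fits. Among the named members, this difference between the 2 backgrounds was -0.44 for GAR1, -0.67 for UTP4, -0.53 for BOP1 and -0.71 for DDX21 on the log2 scale, by edgeR's quasi-likelihood test. UTP4 gained 0.23 ± 0.04 with JQ1 present and 0.89 ± 0.04 without it, BOP1 0.23 ± 0.05 and 0.75 ± 0.05, and DDX21 0.25 ± 0.04 and 0.96 ± 0.04. The DMSO libraries enter each of these values, and without DMSO replicate 3, the library that stood apart, 45 members were called. In that fit 2837 of the 12727 genes tested were called lower and 3027 higher, beside 2305 and 2536 of 12645 in the main fit.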

How the results depend on the processing

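The counts of members and their medians kept their direction under DESeq2 size factors, DESeq2, no filter on low counts, only the groups compared and the replicate block, and each count stayed within 1.5 times. Total count scaling moved the median of all genes tested by more than 0.1 in JQ1 minus DMSO (to -0.13), Combination minus DMSO (to -0.21) and Combination minus CAR (to -0.15). Under it the members' medians were 0.52 for CAR minus DMSO, -0.63 for JQ1 minus DMSO, -0.46 for Combination minus DMSO, 0.16 for Combination minus JQ1, -0.973 for Combination minus CAR and -0.31 for the interaction, and members called higher numbered 7 in Combination minus DMSO and 2 in Combination minus CAR. In the same setting the sign turned for some of the 29 members with values given by library. In Combination minus DMSO these were POLR1D (-0.17), RRP12 (-0.0664), NOP56 (-0.0448) and TSR1 (-0.0191). In Combination minus JQ1 they were POLR1B (-0.0645), POLR1D (-0.0411) and POLR1E (-0.0647), and in Combination minus CAR NOC2L (-0.0828). Outside that set sign changes were looked for only through calls. There NOL6, PNO1 and PES1 went from 0.04, 0.03 and 0.08 with TMM to called lower in Combination minus DMSO. All genes called higher and lower then numbered 2636 and 4738 in CAR minus DMSO, 4216 and 6501 in Combination minus DMSO, and 2229 and 4554 in Combination minus JQ1, beside 3449 and 3801, 5386 and 5415, and 3292 and 3275 with TMM. Upper-quartile scaling gave medians of 0.55 for CAR minus DMSO, -0.57 for JQ1 minus DMSO, -0.32 for Combination minus DMSO and -0.87 for Combination minus CAR, with POLR1D at -0.0365 in Combination minus DMSO and POLR1C at 0.0078 in the interaction. Without the filter GAR1 in Combination minus JQ1 was 0.00078. The cause of these shifts was not tested.

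Leaving out each library in turn gave 53 to 54 members higher in CAR minus DMSO (median 0.56 to 0.61), 43 to 45 lower in JQ1 minus DMSO (median -0.53 to -0.49), 11 to 15 higher and 31 to 32 lower in Combination minus DMSO, 37 to 43 higher and 1 to 3 lower in Combination minus JQ1, 4 higher and 48 lower in Combination minus CAR, and 35 to 45 lower in the interaction (median -0.32 to -0.27). Among the 29 members given by library, some values near 0 that no fit leaving out 1 library called changed sign in these fits. In Combination minus DMSO they ran from -0.00696 to 0.0967 for POLR1D and from -0.0431 to 0.0585 for WDR3. In Combination minus JQ1 they ran from -0.0459 to 0.0334 for GAR1 and from -0.00333 to 0.0496 for POLR1B. For POLR1D in JQ1 minus DMSO the range was -0.0530 to 0.0483, and for POLR1C in the interaction -0.0773 to 0.0302.

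Same-numbered libraries correlated between -0.18 and 0.179 over 18 pairs of libraries. No correlations of differently numbered libraries were computed, so these values cannot show whether the numbers pair the libraries. With the replicate number as a block, 54 members were higher in CAR minus DMSO, 6 higher and 44 lower in JQ1 minus DMSO, 13 and 32 in Combination minus DMSO, 43 and 2 in Combination minus JQ1 (WDR75 was lost), 4 and 48 in Combination minus CAR, and 39 lower in the interaction (POLR1A and POLR1D were gained). Depth limited PPAN most, with 49 to 114 counts per library and the largest SE: its -0.24 ± 0.14 in JQ1 minus DMSO was not called, while GNL3 was called at -0.25 ± 0.05. Over all members the SEs ran from 0.03 to 0.18 on the log2 scale.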
